A study of Mus musculus with 3 samples.

Results

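The genes described here are 10 markers of leukocytes in sorted mouse muscle stem cells (MuSC, satellite cells), 6 of them markers of leukocytes at large or of macrophages (Ptprc, Lyz2, Csf1r, Adgre1, Cd68 and Fcer1g) and 4 genes of MHC class II (H2-Ab1, H2-Aa, H2-Eb1 and Cd74). They were taken as a check of sorted cell purity, and a probe set counted for a gene where the platform annotation gives it that gene alone. All 10 had such a probe set, of the 18193 genes that did, and together they had 18. RNA came from wild-type C57BL/6 mice aged 8 weeks, and there was 1 array for each of 3 conditions. Fresh MuSC were measured after the sort, MuSC −OSM after 3 days in 10% FBS, and MuSC +OSM after the same culture with oncostatin M, an interleukin-6 family cytokine, at 100 ng/mL. The cells had been sorted by FACS from enzymatically digested leg muscle as CD45-, CD11b-, CD31- and Sca1- cells that carried CD34 and α7 integrin, and the labels put cells with the last 2 markers at more than 95% of the yield.

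Leukocytes live in muscle in small numbers and enter it after injury, so a digest of muscle holds macrophages, dendritic cells and others beside the stem cells. CD45, the phosphatase encoded by Ptprc, is carried by nearly every white blood cell and is the usual antigen for removing them in a sort. MHC class II is a surface dimer of an alpha and a beta chain that presents peptides to CD4+ T cells. Its assembly needs the invariant chain, encoded by Cd74, and its genes are switched on together in dendritic cells, B cells and macrophages by the coactivator CIITA, which docks on factors bound to the X and Y boxes of their promoters. C57BL/6 mice make the I-A dimer of H2-Aa and H2-Ab1 and lack the alpha chain that pairs with H2-Eb1.

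The promoters of 4 genes are shown because they carry, or lack, the boxes through which the class II genes are read together. Each is the 150 bases before the RefSeq transcript start on build GRCm38.p6, written 5′ to 3′ on the gene's strand, and capitals mark matches to the Y box, the X1 box or the X2 box. H2-Aa and H2-Eb1 are the class II members with a promoter in the table used, H2-Eb2 is the neighbouring class II beta gene, and Lyz2 is the member that differed most between arrays.
H2-Aa, chr17:34287824-34287973, minus strand: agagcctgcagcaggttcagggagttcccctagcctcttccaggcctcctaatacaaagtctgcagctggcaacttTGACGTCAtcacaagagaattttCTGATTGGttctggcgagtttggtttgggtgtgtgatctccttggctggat
H2-Eb1, chr17:34305717-34305866, plus strand: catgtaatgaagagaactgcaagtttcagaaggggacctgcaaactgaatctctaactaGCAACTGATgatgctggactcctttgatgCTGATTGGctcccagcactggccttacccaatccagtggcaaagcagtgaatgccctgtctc
H2-Eb2, chr17:34325525-34325674, plus strand: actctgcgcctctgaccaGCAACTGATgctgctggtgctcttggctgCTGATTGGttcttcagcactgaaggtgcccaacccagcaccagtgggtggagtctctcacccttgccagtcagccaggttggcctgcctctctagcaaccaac
Lyz2, chr10:117282273-117282422, minus strand: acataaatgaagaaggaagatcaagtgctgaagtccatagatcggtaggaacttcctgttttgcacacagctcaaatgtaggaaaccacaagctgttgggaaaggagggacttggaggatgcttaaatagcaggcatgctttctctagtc

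The motifs searched, on both strands of windows from 250 bases before to 50 after the start, were the Y box CTGATTGG with its core ATTGG inside it, the X1 box GNAACNGAT, the X2 box TGACG and the PU.1 site GAGGAAGT. H2-Eb1 held the X1 box at −91 to −83 and the Y box at −62 to −55, both on its own strand. H2-Eb2 held them at −132 to −124 and at −103 to −96, so that in both genes the X1 box began 32 bases before the core of the Y box. H2-Aa held the Y box at −51 to −44 and an X2 box at −74 to −70, which begins 26 bases before the Y box core and overlaps an X2 box on the opposite strand. Of all 32851 promoters in the table, 4.1% held the Y box, 2.05% the X1 box and 20.8% the X2 box, while 5 held both the Y box and the X1 box on the gene's strand (0.0152%). These 5 were H2-Eb1, H2-Eb2, Cdv3, Prpf38b and 4922502H24Rik. The short core ATTGG stood in 37.4% of promoters and the PU.1 site in 3.2%. Of the 10 members, 6 had a promoter in the table, 3 of them held a motif other than the Y box core (H2-Aa, H2-Eb1 and an X2 box in Cd68), and 0 held the PU.1 site. The promoters of Lyz2, Ptprc and Fcer1g held no match in this window. A match is a run of letters and no measurement of binding.

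The values are MAS5 signals on a linear scale, read against a floor of 40, the median over every signal in the data, and against their 75th percentile of 183. The floor is that median alone and not a detection call, and the level of noise was not estimated. Signals of different probe sets are not read as relative amounts of transcript, since probes differ in affinity. Summed signals and ranks within a list depend on this affinity, can be governed by 1 probe set, and are given as description only. The share of probe sets above the floor was 56.8% fresh, 47.3% without OSM and 45.9% with OSM. The ratio of the 3′ to the 5′ probe set of β-actin, which rises with shorter RNA, was 2.35, 1.40 and 1.41 in that order, and its part in the results below was not tested. With 1 array a condition there is no spread between replicates and no test, so each difference below compares these arrays only. In RNA of a whole population, fewer cells of a type and less RNA per cell cannot be told apart.

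On each array, most of the 10 members had a signal at or under the floor. Of the 10 members, 6 had their main probe set, the one of highest mean signal, above the floor on at least 1 array, and 3 did on each array: Lyz2, Csf1r and Cd68 fresh, Csf1r, Adgre1 and Fcer1g without OSM, and Csf1r, Adgre1 and H2-Ab1 with OSM. Of all 18 probe sets, 10 were above the floor nowhere, and 1, that of Lyz2, reached the 75th percentile on any array. The leukocyte members had 7 of 9 probe sets above the floor somewhere and the class II members 1 of 9.

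**Figure D1:**
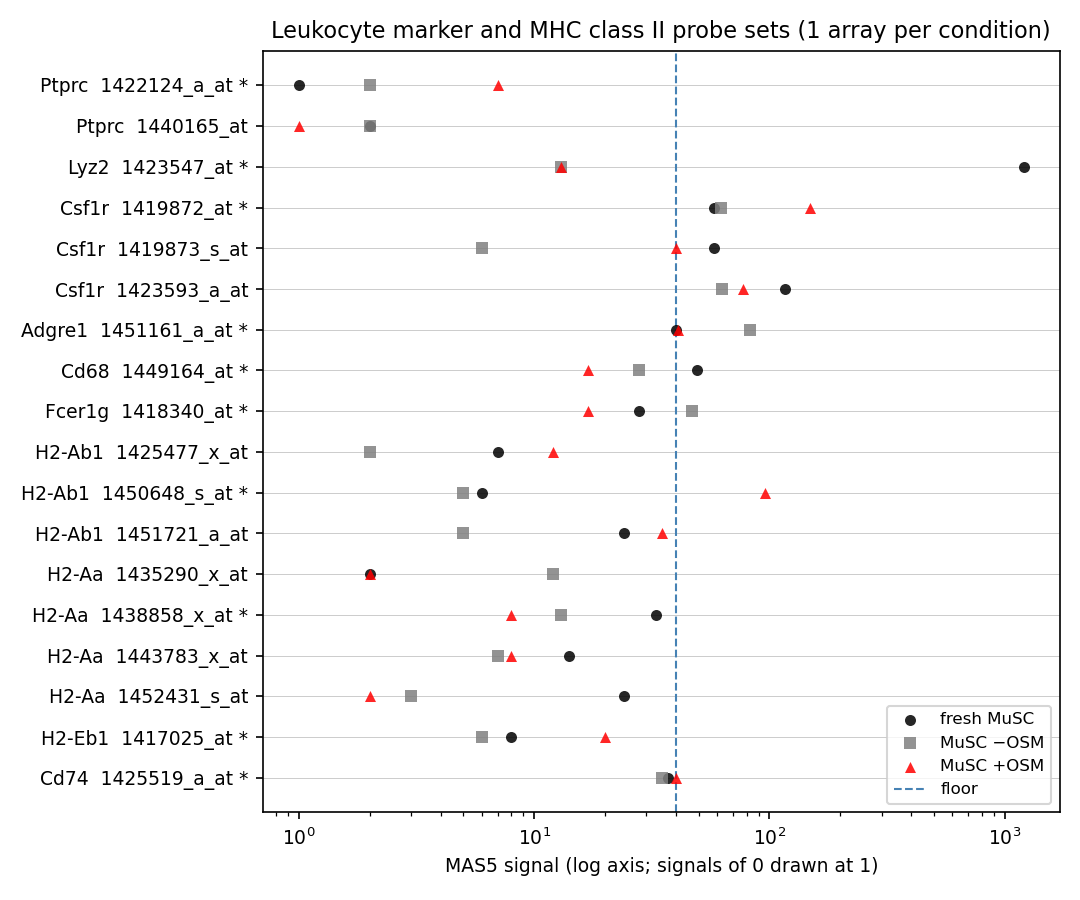
MAS5 signal (log axis) of every probe set of the 10 members on the 3 arrays, 1 point per array, with the floor of 40 as a dashed line and an asterisk on the main probe set of each gene. Lyz2 in fresh MuSC, at 1204, stands apart from all other points, and both probe sets of Ptprc lie between 1 and 7.

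Ptprc, whose product was gated against, was under the floor on every array. Its main probe set gave signals of 1, 2 and 7 (fresh, without OSM, with OSM), and its second one gave 2, 2 and 1. The other antigens gated against were under the floor too, with Itgam (CD11b) at 23, 26 and 1 and Pecam1 (CD31) at 4, 4 and 2. Sca1 (Ly6a) was not analysed here. Of the antigens gated for, Cd34, a sialomucin of quiescent satellite cells and endothelium, gave 2222 fresh, 34 without OSM and 15 with OSM. Itga7, the α7 chain of the laminin receptor, gave 499, 1808 and 1238. The cultured cells therefore still had high Itga7, while their Cd34 signal was under the floor.

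Lyz2 encodes the lysozyme made by macrophages, monocytes and neutrophils, and it was high on the fresh array alone. Its only probe set gave 1204 in fresh MuSC and 13 in each culture. The fresh signal was thus at least 30.1-fold higher than that of MuSC −OSM (log2 ratio 4.91, counting the lower signal at the floor), and the MuSC +OSM signal was at least 30.1-fold lower than the fresh one. The neighbouring gene Lyz1 encodes the other mouse lysozyme, nearly the same in sequence. Its 2 probe sets whose suffix marks probes that may bind other transcripts gave 2544, 6 and 1 and 829, 1 and 1, and its remaining probe set was under the floor throughout at 26, 4 and 3. Signals of the 2 lysozyme genes may therefore come from shared probes and cannot be told apart.

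Other genes followed the same pattern over the arrays as Lyz2. By the distance between their log2 ratios of fresh MuSC and MuSC +OSM to MuSC −OSM, among 4244 genes whose mean signal was within 2-fold of that of Lyz2, the nearest were Akr1c14 with 1209, 26 and 10, Map2 with 1230, 29 and 39, and Tnxb with 1168, 31 and 26. Akr1c14 encodes a steroid dehydrogenase, Map2 a microtubule-associated protein of neurons and Tnxb a matrix protein of the tenascin family. In all, 27 of these genes lay within 0.5 log2 units of Lyz2. The likeness rests on 3 arrays and on the floor, which gives every low culture signal the same value. For Cd74, the class II member with the highest fresh signal, 1165 of 4485 genes had a distance of 0, as all are at the floor, so that none can be singled out.

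The remaining macrophage markers differed less between arrays than Lyz2. Csf1r encodes the receptor for the growth factor on which macrophages depend. Its main probe set gave 58 fresh, 62 without OSM and 149 with OSM, 2.40-fold higher with OSM than without and 2.57-fold higher than fresh. Its other probe sets gave 58, 6 and 40 and 116, 63 and 77. Both of these had their higher signal in fresh cells when set against MuSC +OSM, by 1.45-fold and 1.51-fold, so that the probe sets of Csf1r disagree in direction there.

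Adgre1, the F4/80 antigen of tissue macrophages, gave 40, 83 and 41, and MuSC −OSM was the highest of the 3. The fresh signal was 2.07-fold lower and the +OSM signal 2.02-fold lower than that of MuSC −OSM. Cd68, a lysosomal glycoprotein of phagocytes, gave 49, 28 and 17, above the floor in fresh MuSC alone and at least 1.22-fold higher there than in either culture. Fcer1g, the signalling chain shared by Fc receptors, gave 28, 47 and 17, and it was above the floor without OSM only, where it was at least 1.18-fold higher than on the other arrays.

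MHC class II was near the floor in all conditions, with 1 probe set as the exception. The main probe set of H2-Ab1, the beta chain of I-A, gave 6, 5 and 96, at least 2.40-fold higher with OSM than on either other array. Its suffix marks probes shared by several transcripts. The other probe sets of H2-Ab1 gave 7, 2 and 12 and 24, 5 and 35, under the floor throughout. H2-Aa, the alpha chain that H2-Ab1 needs as a partner, was under the floor in all of its 4 probe sets, with 33, 13 and 8 in the main one and no signal above 24 in the others. H2-Eb1 gave 8, 6 and 20. Cd74, the invariant chain, gave 37, 35 and 40, none of them above the floor. The H2-Ab1 signal of MuSC +OSM thus had no counterpart above the floor in H2-Aa, H2-Eb1 or Cd74.

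Counted over members, the differences were few and mostly small in signal. Between fresh MuSC and MuSC −OSM, 5 members could be measured, meaning that at least 1 of both signals was above the floor. Of these, 1 was at least 2-fold higher in fresh MuSC (Lyz2) and 1 lower (Adgre1), where 20.4% of the 12755 genes measured were higher and 15% lower. Between MuSC +OSM and MuSC −OSM, 2 of 4 were higher with OSM (Csf1r and H2-Ab1) and 1 lower (Adgre1), against 6.07% and 4.39% of 11271 genes. Between MuSC +OSM and fresh MuSC, 2 of 5 were higher (Csf1r and H2-Ab1) and 1 lower (Lyz2), against 13.8% and 17.2% of 12483 genes. The median log2 ratio was 0.0 in each comparison, both over the 10 members and over all genes, a value that the floor sets for the members, of which 5 or 6 were unmeasured, and from which nothing is read. The comparisons share arrays, so Csf1r and H2-Ab1, called in both comparisons of MuSC +OSM, are not 2 observations each. Main probe sets were picked by the mean over all 3 arrays, MuSC +OSM included. Without the MuSC +OSM signal, another probe set would have been the main one of Csf1r and of H2-Ab1. H2-Ab1 was also measured through that signal alone. The 2 calls thus rest partly on the array in which they are high, and nothing is read from their number.

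Apart from Lyz2, every member called lay at 149 or less. Among genes whose higher signal was above the floor and no more than 160, 20.5% differed by at least 2-fold in either direction between fresh MuSC and MuSC −OSM, 9% between the cultures, and 20% between MuSC +OSM and fresh MuSC. In each comparison this share was under the sum of the shares of higher and lower genes over all genes measured. The floor lowers this share, since a higher signal of less than 2 times the floor cannot give a 2-fold ratio. Nothing is therefore read from the difference.

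**Figure D2:**
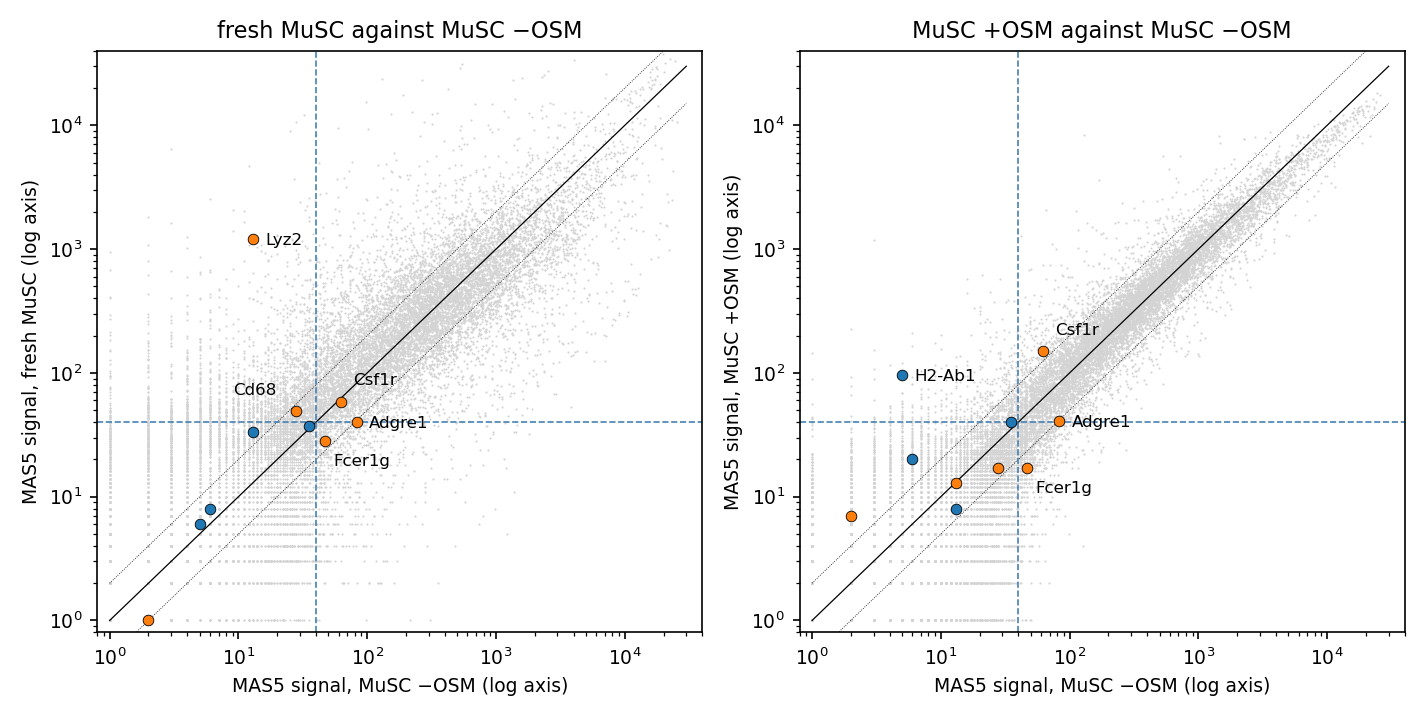
MAS5 signal of each gene's main probe set (log axes) in fresh MuSC against MuSC −OSM (left) and in MuSC +OSM against MuSC −OSM (right), with all genes in grey, the 6 leukocyte members in orange and the 4 class II members in blue. The solid line marks equal signals, dotted lines 2-fold differences and dashed lines the floor of 40, and Lyz2 in the left panel is the one member far from all of them.

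The genes that make, load and regulate MHC class II gave values of their own. Of 14 listed genes with a probe set, 8 were above the floor fresh, 8 without OSM and 7 with OSM, among them lysosomal enzymes and factors that are not particular to leukocytes. Over all genes, 65.8%, 58.9% and 57.0% were above it. Ctsl, a lysosomal protease of many cell types, gave 5206, 1888 and 5377, 2.76-fold higher fresh and 2.85-fold higher with OSM than without. Lgmn, the lysosomal asparaginyl endopeptidase, gave 251, 453 and 1297, 2.86-fold higher with OSM than without and 5.17-fold higher than fresh. These 2 were the listed genes at least 2-fold higher with OSM than without, among 8 measured, and 0 were lower. Over all genes measured, 6.07% were higher and 4.39% lower. Lgmn was named after its values were seen.

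The main probe sets of Rfx5, Rfxap and Rfxank, of the complex that binds the X box, were above the floor on all arrays. Rfxank, named after its values were seen, gave 97, 54 and 62. Its other probe sets gave 21, 57 and 32 and 36, 58 and 30, above the floor without OSM only. Rfx5, a subunit of that complex, gave 467 fresh and 125 in each culture, 3.74-fold higher fresh, and Rfxap, another subunit, gave 265, 273 and 320 and was named after its values were seen. Ifi30, a thiol reductase of the lysosome, gave 285, 132 and 122, 2.16-fold higher fresh than without OSM. Rfx5, Ifi30 and Ctsl were the 3 of 10 measured genes called higher on the fresh array when set against MuSC −OSM, with 0 lower. Over all genes measured, 20.4% were higher and 15% lower. Against fresh MuSC, the MuSC +OSM array had 1 of 9 measured genes higher (Lgmn) and 2 lower (Rfx5 and Ifi30). The shares over all genes measured were 13.8% and 17.2%.

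The following genes of the list were looked up after its values were seen. Ciita, the coactivator itself, gave 66, 20 and 27 in its main probe set, at least 1.65-fold higher fresh than without OSM, and was at 18 or less in its other probe sets. Ctss, the protease that trims the invariant chain in such cells, gave 38, 7 and 5. H2-DMa and H2-DMb2, the chains of the peptide editor, gave 33, 70 and 46 and 21, 64 and 23, both highest without OSM. Marchf1, a ubiquitin ligase that removes MHC class II from the surface, gave 54, 19 and 21. H2-Eb2, whose promoter is printed above, gave 29, 9 and 18.

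**Figure D3:**
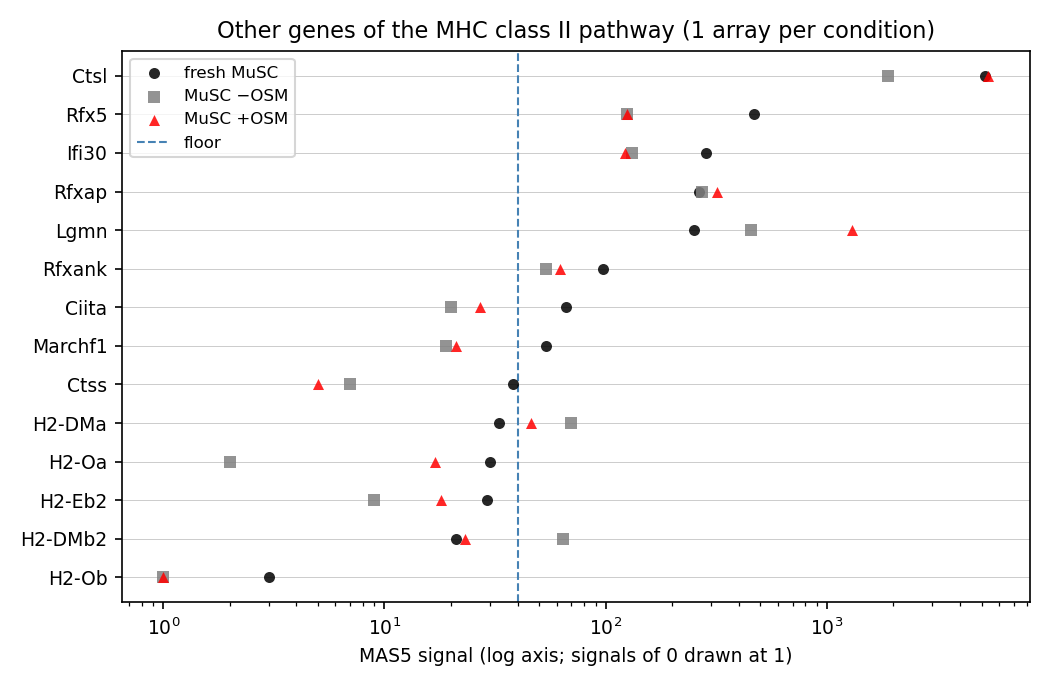
MAS5 signal (log axis) of the main probe set of 14 genes of the MHC class II pathway other than the members, 1 point per array, with the floor of 40 as a dashed line. Ctsl, at 5206 and 5377, is lower without OSM (1888), and Lgmn has its highest point with OSM, at 1297.

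Markers of separate leukocyte types were low as lists. Of 98 genes in 7 lists without the members, 21 were above the floor in fresh MuSC (21.4%), 13 without OSM (13.3%) and 7 with OSM (7.14%), where 65.8%, 58.9% and 57.0% of all genes were. The 75th percentile was reached by 3, 1 and 2 of them, against 38.2%, 35.3% and 36.4% of all genes. Those in fresh MuSC were Mertk, Lyz1 and Blnk, and the Lyz1 signal cannot be told apart from that of the member Lyz2. The 7 lists cover leukocytes in general, macrophages and monocytes, dendritic cells, T and NK cells, B cells, neutrophils and mast cells.

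Of 20 general leukocyte genes, 4, 5 and 3 were above the floor, with summed signals of 711, 560 and 686. The 3 with the highest fresh signals were Laptm5, a lysosomal membrane protein of blood cells, with 118, 85 and 61, the phosphatase gene Ptpn6 with 101, 85 and 48, and Selplg, the P-selectin ligand, with 70, 40 and 22. The other probe sets of Laptm5 gave 105, 31 and 42, 4, 42 and 28, 7, 21 and 13, and 9, 25 and 16. The second probe set of Ptpn6 gave 6, 19 and 43. Probe sets of these 2 genes thus disagreed on the array with the highest signal. None of the 20, of which 6 could be measured, was called between fresh MuSC and MuSC −OSM. Over all genes measured, 20.4% were higher fresh and 15% lower. With OSM, 1 of 5 measured was at least 2-fold higher than without it, against 6.07% of all genes measured. This was Arhgdib at 13, 60 and 272, singled out after its values were seen.

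Of 27 macrophage and monocyte genes, 7, 4 and 2 were above the floor, and their summed signal was 3559, 690 and 534. Lyz1, given above, and Mertk, a receptor for apoptotic cells with 252, 25 and 13 (at least 6.30-fold higher fresh), were the 2 called between fresh MuSC and MuSC −OSM. The third by fresh signal was Fcgr2b, the inhibitory Fc receptor, with 157, 209 and 84. Of the list, Ms4a6c with 61, 42 and 20, Csf2rb with 59, 55 and 229, the lectin gene Clec7a with 51, 9 and 9 and the scavenger receptor gene Msr1 with 41, 4 and 3 were also above the floor in fresh MuSC, while Cd14 with 23, 20 and 5 and the complement genes C1qa with 8, 2 and 5, C1qb with 30, 18 and 1 and C1qc with 3, 2 and 2 were under it on every array. These 8 genes were looked up after the list's values were seen. The fresh sum is thus mostly the Lyz1 signal, which cannot be told apart from that of the member Lyz2. Lyz1 and Mertk were the 2 called of 8 genes of the list that could be measured. Over all genes measured, 20.4% were higher fresh and 15% lower.

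The other leukocyte lists had single genes and little else. Of 9 dendritic cell genes, 3, 1 and 1 were above the floor (summed signal 257, 237 and 158), led by Cd83 with 52, 14 and 3, Batf3 with 51, 8 and 22 and Zbtb46 with 48, 111 and 80, the 1 gene called in fresh MuSC against MuSC −OSM, where it was lower. The other probe sets of Zbtb46 gave 29, 38 and 32, 65, 73 and 47, and 3, 17 and 18. Of 15 T and NK cell genes, 4, 1 and 1 were (420, 201 and 180), led by the perforin gene Prf1 with 100, 1 and 42 (at least 2.50-fold higher fresh than without OSM, the 1 gene called), Cd8a with 62, 44 and 7 and Cd3g with 46, 9 and 14. A second probe set of Prf1 gave 44, 50 and 32 and did not have the higher fresh signal. Of 8 B cell genes, 3, 1 and 0 were (2255, 152 and 77), and Blnk, an adaptor of the B cell receptor, made up most of the fresh sum with 2040, 11 and 4. The next were Ms4a1 (CD20) with 58, 38 and 18 and Cd22 with 55, 47 and 21. All other probe sets of Cd8a, Ms4a1 and Cd22 were under the floor on every array. Between fresh MuSC and MuSC −OSM, 3 dendritic cell, 4 T and NK cell and 3 B cell genes could be measured. Over all genes measured, 20.4% were higher fresh and 15% lower.

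Of 11 neutrophil genes, 0, 1 and 0 were above the floor (181, 123 and 122), with Mpo at 39, 14 and 13, Ngp at 36, 53 and 38 and Mmp8 at 33, 2 and 9. Of 8 mast cell genes none was above the floor on any array (65, 93 and 62), with Kit at 20, 7 and 9, Ms4a2 at 17, 4 and 5 and Cpa3 at 7, 22 and 2. Of 4 erythroid genes, taken as a sign of blood, none was above the floor (14, 48 and 27).

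**Figure D4:**
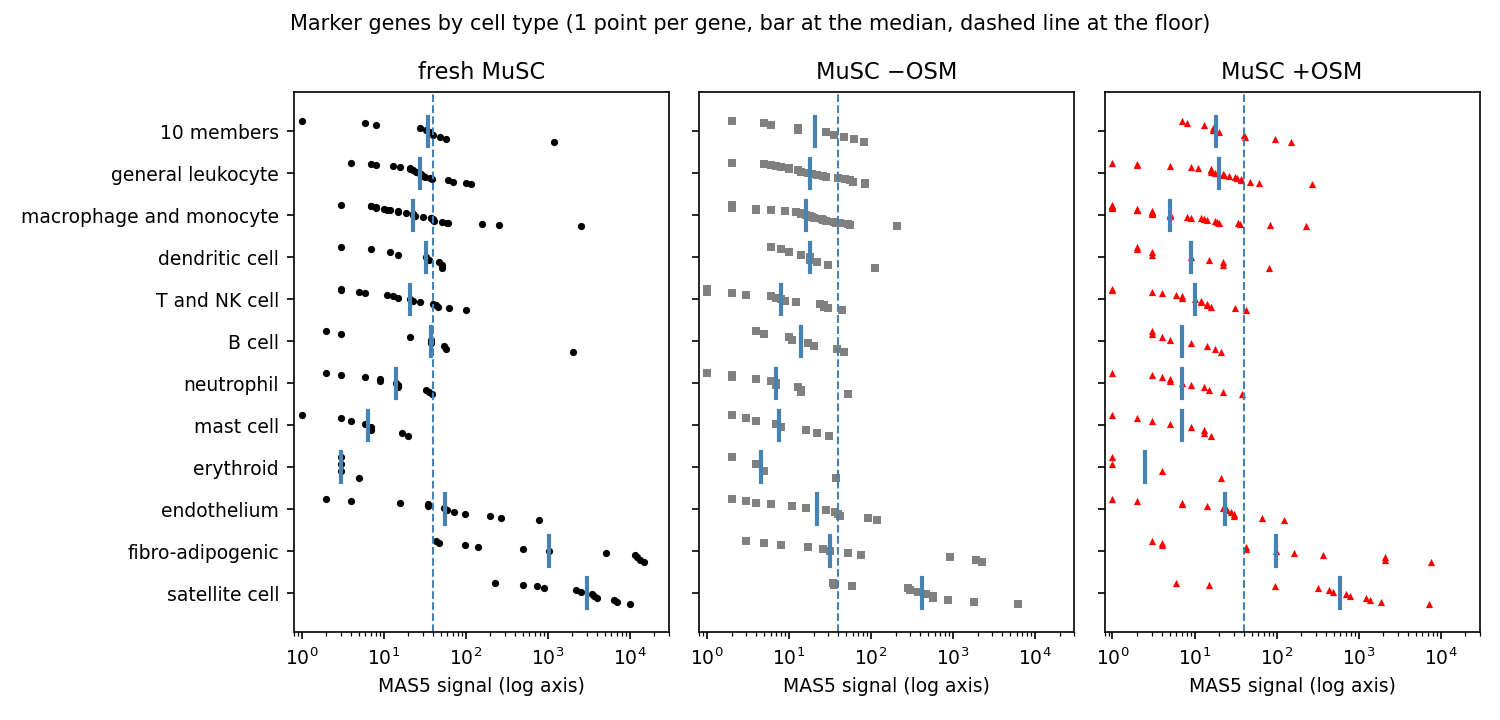
MAS5 signal (log axis) of the main probe set of each listed marker gene in 12 lists on the 3 arrays, 1 point per gene, with a bar at the list's median and the floor of 40 as a dashed line. The leukocyte lists lie mostly under the floor with single high genes such as Blnk at 2040 in fresh MuSC, while all 12 satellite cell genes lie above it there.

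Lists of cells that are not leukocytes were read array by array in the same way. All 12 satellite cell genes were above the floor in fresh MuSC and 10 in each culture, with summed signals of 41742, 11521 and 14544. Sdc4 gave 10047, 862 and 1368, Myf5 7016, 561 and 1855 and Vcam1 6363, 464 and 493. Pax7, the transcription factor that defines satellite cells and was named after its value was seen, gave 4006, 282 and 431. Between fresh MuSC and MuSC −OSM, 8 of the 12 were called with the higher signal fresh and 2 with the lower. Over all genes measured, these shares were 20.4% and 15%. The 2 lower ones were Itga7, given above, and Des with 744, 6183 and 7248, named after its values were seen. The fibro-adipogenic list, genes of the connective tissue cells of muscle, had 11 of 11 genes above the floor fresh and 5 and 8 in culture, with sums of 58867, 5284 and 12625. Set against MuSC −OSM, 9 of these 11 were at least 2-fold higher on the fresh array and 0 lower, beside the same 20.4% and 15%. The highest fresh signals of the list were those of Col1a2 with 14778, 925 and 2123, Col3a1 with 13247, 2249 and 7683, and Dcn, given below. The endothelial list had 7, 3 and 2 of 12 above the floor (1633, 395 and 357), led by Tek with 791, 42 and 25, Cdh5 with 268, 6 and 22 (its second probe set 24, 6 and 11) and Eng with 200, 117 and 124. Under the floor in fresh MuSC were Flt1 (35), Vwf (35), Emcn (16), Pecam1 (4) and Tie1 (2), looked up after the list's values were seen. Over all genes, 65.8%, 58.9% and 57.0% were above the floor on the 3 arrays, the shares to set beside these lists. The summed signals of all 3 of these lists were highest in fresh MuSC, as was Lyz2, and the part of other cells in the Lyz2 signal was not tested. The arrays give no share of cells, since no array of leukocytes was used here.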

How the data were processed

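RNA of FACS-sorted MuSC was hybridised to Affymetrix MOE_430_2 arrays, 1 per condition, after amplification of 20 ng total RNA with 3′ IVT Express reagents per the labels. The authors processed the arrays with MAS5, version not given in the sources used here, and deposited the signal intensity of each probe set on a linear scale. Trimmed means (2% cut at each end) were 198.4, 198.5 and 198.7, so the arrays had been scaled alike. The number of arrays limits the precision.

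Ratios were computed with Python 3.11.15, numpy 2.4.6 and pandas 2.3.3, after 64 control probe sets were left out of 45101. Of the rest, 34945 named 1 gene, and 932 naming several and 9160 naming none were not used. A gene took its probe set of highest mean signal over the 3 arrays. Signals were raised to a floor of 40 (the median of all) before log2 ratios were taken. A gene counted as measured with at least 1 of the 2 signals above the floor and as called at 2-fold, and "at least" marks ratios whose lower signal was under it. The calculation was tested on simulated data. Changes were simulated only in genes with a signal above 160, so the finding of changes nearer the floor was not tested. Genes named are all members, the up to 3 highest fresh signals of each marker list, the genes of the sort gate and the 3 genes nearest to a member. Others are said to have been chosen after their values were seen. The members and lists were chosen with earlier results of these data known. Motifs were searched in RefSeq promoters of build GRCm38.p6. Alternatives covered scaling, floor, pseudocount, probe set, fold threshold and motif strand.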

Additional observations from a re-analysis of the deposited data

How the results depend on the processing

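Of 108 ratios of single members under 9 alternatives, 92 stayed on their side of the threshold. Among these, the log2 ratio of Csf1r between fresh MuSC and MuSC −OSM turned its sign with the median over probe sets, from −0.10 to 0.54, and was under the threshold in both cases. Ratios that an alternative left unmeasured are not among the 108. With a floor at the 75th percentile, these were all ratios but those of Lyz2. Cd68 was left unmeasured by both rescalings, and H2-Ab1 by probe sets without a shared-target suffix. The alternatives of the fold threshold move the threshold alone and leave each ratio as it was. Lyz2 remained the 1 member called higher on the fresh array against MuSC −OSM under each alternative. The number lower there went from 1 to 0 with a floor at the 75th percentile, with log2(signal + 16) and at 3-fold. Between MuSC +OSM and MuSC −OSM, the number lower went from 1 to 0 with median-centred arrays, quantile normalization, a floor at the 75th percentile, log2(signal + 16) and 3-fold, and to 2 with a floor at 20. The number higher with OSM, against either array, went from 2 to 0 with a floor at the 75th percentile, the median over probe sets and 3-fold, and to 1 with probe sets without a shared-target suffix, a setting chosen after seeing the data. The number lower than fresh went from 1 to 2 with a floor at 20. With the median over probe sets, the log2 ratio of Csf1r between MuSC +OSM and fresh MuSC was reversed, at −0.54 against 1.36. With a floor at the 75th percentile, 3 genes of the leukocyte lists were above it in fresh MuSC, in place of 21, and 14 were above the floor after quantile normalization. A gene at or near the floor counts as unmeasured under a higher one, and the cause of the other shifts was not tested.

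Scaling moved the balance of calls over all genes. The share of calls that were higher was 57.6% between fresh MuSC and MuSC −OSM, 30.1% once arrays were centred on their medians and 46.6% when they were quantile-normalized. It was 58.0%, 72.6% and 54.6% between the cultures, and 44.5%, 80.3% and 54.8% between MuSC +OSM and fresh MuSC. The median log2 ratio of measured genes moved with it, at 0.14, −0.36 and −0.09, at −0.01, 0.15 and −0.03, and at −0.14, 0.57 and 0.07 in the same order. Read on the gene's strand alone, 1.99% of promoters held the Y box, 22.1% its core, 1.0% the X1 box, 12.4% the X2 box and 1.82% the PU.1 site. No paired analysis was possible because each condition has 1 array. Signals near the floor, which most members have, do not show that a transcript was absent.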

Other observations

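Some listed markers outside the members had high signals on a single array, and they are given as values. In MuSC +OSM, Csf2rb, the common beta chain of the receptors for GM-CSF, interleukin-3 and interleukin-5, gave 229 against 59 fresh and 55 without OSM, 4.16-fold higher than without OSM, and its second probe set gave 53 against 30 and 3. Fcgr2b was 2.49-fold lower with OSM than without, at 84 against 209, and its other probe sets did not follow this, with 107, 1 and 18, 53, 4 and 41, 93, 26 and 25, and 4, 2 and 1 (fresh, without OSM, with OSM). Set against MuSC −OSM, the fresh signal of Blnk was at least 51.0-fold higher and that of Tek, the angiopoietin receptor of endothelium, 18.8-fold higher. Decorin (Dcn), a matrix proteoglycan of fibroblasts, gave 12179 fresh, 32 without OSM and 373 with OSM. Csf2rb and Fcgr2b with OSM, and Dcn, which is also among the highest fresh signals of its list, were singled out here after their values were seen.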
